A study of Mus musculus with 27 samples.

Results

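Among the 9 untreated mammary tumour cell lines of the series, 3 gave no reads from Cdkn2a or Cdkn2b and 6 expressed both genes. The silent lines were those with both genes at 0 CPM, and the expressing lines those with Cdkn2a above 5 CPM, so the 9 untreated libraries of 27 in all were divided with none left over. CPM is the number of reads of a gene per 1000000 reads assigned to genes. The silent lines were ΔHD1/fl line 2, ΔHD1/- line 1 and ΔHD1/- line 2. The expressing lines were ΔHD1/fl line 1, ΔHD2/fl lines 1 and 2, and ΔHD2/- lines 1, 2 and 3.

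All lines came from MMTV-PyMT tumours of female FVB/N mice, in which the mouse mammary tumour virus promoter drives the polyoma middle T oncogene in mammary epithelium. Each carried on one allele of Bcl9 and Bcl9l a mutation of the domain that binds Pygopus (ΔHD1) or of the domain that binds β-catenin (ΔHD2), opposite a floxed wild-type allele (fl) that Cre adenovirus had removed in the lines written with a minus sign. Libraries of this comparison received no cytokine for 4 days and held 21.9 to 33.7 M reads, where 1 M is 1000000 reads. Each line is 1 culture. The primary cells came from 2 different tumours, whether per genotype or in all is not given in the sources used here, and the lines with a minus sign were made from such cells, so there were fewer tumours than lines. Which fl line a recombined line stems from is not given either. The tests below treat lines as independent, so their p-values may be too small. All 3 silent lines carried ΔHD1 and 5 of the 6 expressing lines carried ΔHD2. Cdkn2a status and domain mutant therefore rest apart on 1 line, ΔHD1/fl line 1, and beyond it they cannot be told apart.

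Cdkn2a encodes a pair of unrelated tumour suppressors from overlapping reading frames. The p16Ink4a protein inhibits the kinases Cdk4 and Cdk6 and so keeps the retinoblastoma protein active, while p19Arf holds back Mdm2, the ubiquitin ligase of p53. The neighbouring Cdkn2b encodes p15Ink4b, a further inhibitor of Cdk4 and Cdk6, which TGFβ is known to induce in epithelial cells. The locus is repressed by Polycomb complexes in young cells, is activated in senescence and by oncogenes, and is often lost or silenced in tumours and in cells kept in culture.

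The bases before the starts of these transcripts are shown because no read came from any of them in the silent lines. Each sequence is the 250 bases upstream of a RefSeq start on the minus strand of GRCm38.p6 (the assembly also called mm10), written 5′ to 3′, with each CG dinucleotide in capitals.
Cdkn2a, upstream start (p19Arf), chr4:89294620-89294869: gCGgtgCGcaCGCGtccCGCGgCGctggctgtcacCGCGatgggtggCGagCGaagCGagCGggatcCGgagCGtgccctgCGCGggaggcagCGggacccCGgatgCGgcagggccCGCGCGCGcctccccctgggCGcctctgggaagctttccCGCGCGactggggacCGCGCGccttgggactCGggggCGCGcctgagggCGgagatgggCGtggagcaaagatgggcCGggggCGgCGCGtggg
Cdkn2a, downstream start (p16Ink4a), chr4:89282193-89282442: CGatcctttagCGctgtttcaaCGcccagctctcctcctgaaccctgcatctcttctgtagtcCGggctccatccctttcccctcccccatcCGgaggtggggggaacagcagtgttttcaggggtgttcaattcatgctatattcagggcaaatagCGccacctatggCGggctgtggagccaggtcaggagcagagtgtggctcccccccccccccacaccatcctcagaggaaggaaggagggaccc
Cdkn2b (p15Ink4b), chr4:89311033-89311282: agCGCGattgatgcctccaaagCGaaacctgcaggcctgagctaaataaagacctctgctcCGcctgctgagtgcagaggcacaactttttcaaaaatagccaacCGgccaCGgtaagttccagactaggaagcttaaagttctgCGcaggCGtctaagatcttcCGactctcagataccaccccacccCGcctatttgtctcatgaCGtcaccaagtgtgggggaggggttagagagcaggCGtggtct

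The p19Arf window held 40 CG dinucleotides, a number reached by 1.31% of the 32851 RefSeq windows of the same length. The p16Ink4a window held 7, reached by 46.3%, and the Cdkn2b window held 12, reached by 33.5%, against a median of 6 over all windows. The word CG reads the same on both strands, so each dinucleotide was counted once. The windows thus differed widely in CG content. These are counts in the reference genome, and a link to the silence of the genes was not tested.

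Cdkn2a (Entrez Gene, chr4:89274473-89294619) measured 0 CPM in each untreated silent line, 27.9 CPM in line 1 of ΔHD1/fl, 31.8 and 25.0 CPM in ΔHD2/fl lines 1 and 2, and 12.9, 24.8 and 26.1 CPM in ΔHD2/- lines 1, 2 and 3. Cdkn2b (chr4:89306289-89311032) measured 0 CPM in the silent lines and, in the same order of expressing lines, 33.9, 17.4, 34.6, 65.5, 15.8 and 18.2 CPM. The groups were chosen by these values, which are given as a description, with no test. No line lay between the groups: the expressing line nearest to the limit of 5 CPM for Cdkn2a was ΔHD2/- line 1, which was also the highest for Cdkn2b. The table counts all exons of Cdkn2a together, so p16Ink4a and p19Arf transcripts cannot be told apart.

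The silent state held in libraries that the rule did not use. The same 3 lines were also sequenced after Wnt3a (100 ng/ml, 3 days) and TGFβ (2 ng/ml, 4 days), and these 6 libraries, with 163 M reads together, held 0 reads of Cdkn2a and 0 reads of Cdkn2b. A count of 0 allows up to 3 reads, or 0.105 to 0.121 CPM in each of the 6, for counting error only. In the 6 expressing lines Cdkn2a ranged over 15.8, 49.3 and 52.7 CPM (lowest, median and highest) with Wnt3a and over 6.02, 48.2 and 127 CPM with TGFβ. Cdkn2b ranged over 27.1, 54.3 and 114 CPM with Wnt3a and over 36.9, 92.3 and 312 CPM with TGFβ, and its level with TGFβ was above the untreated level in 6 of 6 expressing lines. ΔHD2/- line 1 was the exception for Cdkn2a, with 12.9 CPM untreated and 6.02 CPM with TGFβ.

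**Figure D1:**
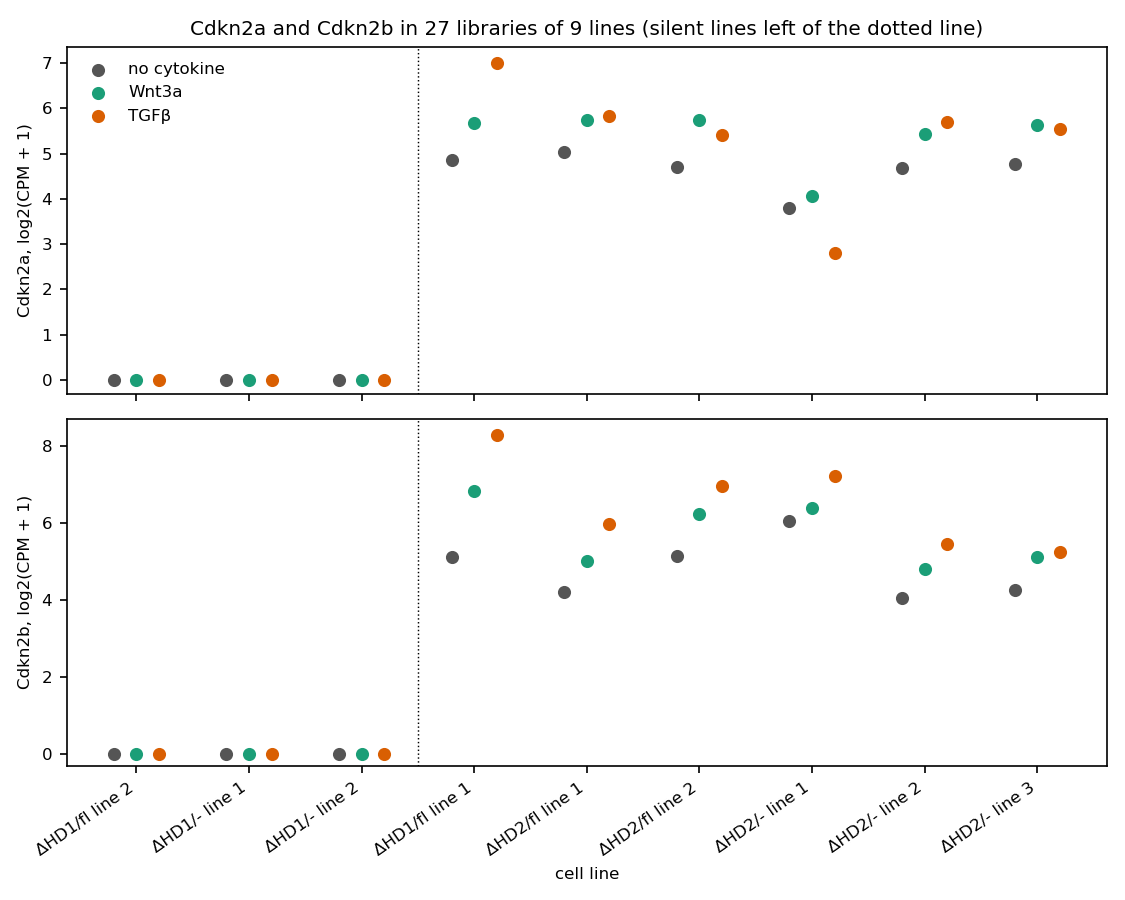
Level of Cdkn2a (upper panel) and Cdkn2b (lower panel) as log2(CPM + 1) in each of the 9 cell lines, with 1 point per library for no cytokine, Wnt3a and TGFβ. The 3 silent lines, left of the dotted line, sit at 0 in all 9 libraries, and the 6 expressing lines lie above in all 18.

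The genes around Cdkn2a were then read for how far the silence reached. Within 2 Mb on either side lie 40 annotated protein-coding genes besides Cdkn2a and Cdkn2b, among them the cluster of type I interferon genes, and 33 of the 40 stayed below 1 CPM in every untreated line. On the lower-coordinate side expressed genes came close. Mtap, which encodes methylthioadenosine phosphorylase of the methionine salvage pathway and lies next on that side to Cdkn2a, measured 288, 773 and 286 CPM in ΔHD1/fl line 2, ΔHD1/- line 1 and ΔHD1/- line 2, the order kept below for the silent lines. The expressing lines had 114 to 395 CPM, median 149, so the groups overlapped (log2 fold change 1.11, limma adjusted p = 0.216).

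Klhl9, an adaptor of a ubiquitin ligase, measured 80.8, 128 and 126 CPM against 92.8 to 143 CPM, median 121, and Focad and Mllt3 further out were likewise expressed in all lines, at 49.8 to 74.2 CPM and 26.9 to 36.4 CPM in the silent lines. Of the 7 protein-coding neighbours tested, 1 was called, beside 3.62% of all tested genes (480 of 13268), by a limma fit described below. It was Hacd4, a dehydratase of very-long-chain fatty acid synthesis, with 4.55, 9.11 and 13.7 CPM against 0 to 3.38 CPM, median 0.352 (log2 fold change 2.55, SE 0.54, limma adjusted p = 0.0359). Hacd4 was higher, not lower, in the silent lines. Its call was lost without ΔHD1/fl line 2 (adjusted p = 0.0954), ΔHD1/- line 2 (adjusted p = 0.166), ΔHD2/fl line 2 or any of the 3 ΔHD2/- lines.

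Between Cdkn2a and Cdkn2b starts Gm12610, an antisense long non-coding RNA gene (chr4:89295180-89518621) whose span also covers Cdkn2b. Untreated, it had 0, 6 and 0 reads in the silent lines and 18 to 75 reads in the expressing lines, with no overlap (log2 fold change -1.19, limma adjusted p = 0.0839, not called). With Wnt3a it had 0, 7 and 0 reads in the silent lines and 28 to 123 in the expressing lines. With TGFβ it had 3, 2 and 3 reads against 16 to 89. Whether counting used strand is not given in the sources used here, so its reads cannot be told from those of the genes on the other strand. On the higher-coordinate side of Cdkn2b the only protein-coding genes to reach 1 CPM were Dmrta1 and Elavl2, at most 1.05 and 2.70 CPM in any line, which leaves no expressed gene there to compare. RNA counts do not tell a gene that is absent from one that is not transcribed.

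**Figure D2:**
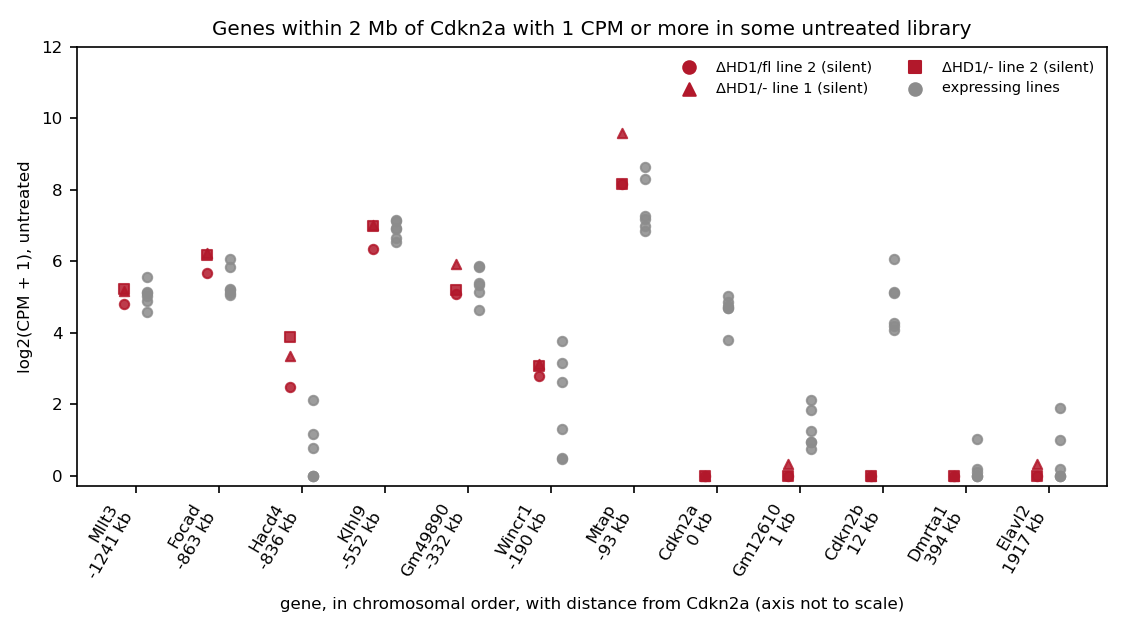
Level as log2(CPM + 1) of the 12 genes within 2 Mb of Cdkn2a that reached 1 CPM in an untreated library, in chromosomal order with the distance from Cdkn2a in kb, with 1 point per line. Cdkn2a and Cdkn2b are at 0 in the 3 silent lines, while Mtap, Klhl9, Focad and Mllt3 are expressed in all 9 lines.

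Before the comparison of all genes, the lines were checked against their labelled epithelial origin, and the silent lines did not form 1 kind. Cdh1, which encodes the epithelial adhesion protein E-cadherin, measured 0.522, 817 and 0.237 CPM in the silent lines and 606 to 1145 CPM, median 818 in the expressing lines. Vim, the mesenchymal intermediate filament vimentin, measured 4188, 156 and 3678 CPM and 2.48 to 761 CPM, median 193. ΔHD1/fl line 2 and ΔHD1/- line 2 thus lacked E-cadherin and Epcam, and ΔHD1/- line 1 had both.

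Across the 13268 tested genes the log2(CPM + 1) values of ΔHD1/fl line 2 and ΔHD1/- line 2 correlated at 0.949 with each other and at 0.900 and 0.885 with ΔHD1/- line 1, which correlated at 0.951 with the expressing ΔHD2/fl line 1. The expressing lines correlated at 0.883 to 0.993, the highest value being that of ΔHD2/- lines 2 and 3. These are correlations across genes, which are not independent replicates.

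Silent and expressing lines were compared for every gene except the pair that defined them. A gene was called where its limma adjusted p (Benjamini-Hochberg) was 0.05 or less and its log2 fold change 1 or more in either direction, on the scale of log2(CPM + 1), which understates the change of low genes. Of 13268 genes, 480 were called (3.62%), 262 higher (1.97%) and 218 lower (1.64%) in the silent lines. In 468 of the 480 the levels of the groups did not overlap. Over all tested genes, 801 (6.04%) were higher in each silent line than in any expressing line and 851 (6.41%) were lower, 12.5% together. An unadjusted p under 0.05 was reached by 2909 (21.9%). The median log2 fold change of all tested genes was -0.02.

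The count rested on single lines. It was 10 without ΔHD1/fl line 2, 43 without ΔHD1/- line 2 and 1100 without ΔHD1/- line 1, and 183, 174 and 170 without ΔHD2/fl line 2, ΔHD2/- line 2 and ΔHD2/- line 3. Without both silent lines that lacked Cdh1, limma called 0 genes (928 at an unadjusted p under 0.05), a contrast of 1 silent line that is assumed to vary like the others. edgeR's quasi-likelihood test on reads recovered from the CPM values called 207, of which 164 were higher and 43 lower. Of the 62 called genes named in the text, 55 lost their call without ΔHD1/fl line 2, 48 without ΔHD1/- line 2, 2 without ΔHD1/- line 1 and 12 to 32 without 1 of the expressing lines.

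The largest differences upwards included collagen chains and a growth factor receptor of connective tissue. Pdgfrb, the receptor for platelet-derived growth factor B on fibroblasts and pericytes, measured 762, 193 and 473 CPM in the silent lines and 0 to 15.8 CPM, median 0.151 in the expressing lines (log2 fold change 7.54, SE 0.96, limma adjusted p = 0.0113). Col5a1, a chain of fibrillar collagen, measured 772, 124 and 759 CPM against 0 to 18.3 CPM, median 0.187 (log2 fold change 7.37, adjusted p = 0.0176). Both genes were high in all 3 silent lines, including ΔHD1/- line 1, and the highest expressing line for both was ΔHD1/fl line 1.

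Col3a1, another fibrillar collagen chain, differed among the silent lines themselves, with 608, 2.14 and 1036 CPM against 0 to 1.51 CPM, median 0 (log2 fold change 6.71, adjusted p = 0.047). Prune2 (223, 1.97 and 174 CPM) and Creb3l1 (129, 1.54 and 121 CPM), the latter a transcription factor that is released from the endoplasmic reticulum, showed the same split. In these 3 genes ΔHD1/- line 1 lay near the expressing lines, whose highest values were 1.51, 0.560 and 1.25 CPM.

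A more even rise was seen in Ccn4, a secreted matricellular protein known as a target of Wnt signalling, with 82.7, 47.1 and 101 CPM against 0.0901 to 5.69 CPM, median 1.07 (log2 fold change 5.15, adjusted p = 0.00645). Gnb4, a G protein β subunit, measured 24.7, 23.0 and 78.7 CPM against 0 to 1.55 CPM, median 0.131. Ephb2, an ephrin receptor, measured 51.9, 65.4 and 99.5 CPM against 0.137 to 11.0 CPM, median 1.24. In these genes the lowest silent line was over the highest expressing line by several fold. The other 4 of the 12 largest rises were Ogn, Chst1, Masp1 and Matn2, which encode a proteoglycan, a sulfotransferase, a protease of the lectin complement pathway and a matrix protein, with log2 fold changes of 5.24, 5.21, 4.71 and 4.61 and adjusted p of 0.0112, 0.0363, 0.0144 and 0.0243.

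The largest differences downwards held epithelial genes and a few that fell alike in all 3 silent lines. Col11a1, a minor fibrillar collagen chain, measured 0.261, 0.770 and 0.119 CPM in the silent lines and 24.2 to 1690.3 CPM, median 638 in the expressing lines (log2 fold change -8.32, SE 1.17, limma adjusted p = 0.0144), with the lowest expressing value in ΔHD1/fl line 1. Nkd2, which encodes an inhibitor of Dishevelled in the Wnt pathway, measured 13.8, 5.90 and 0.950 CPM against 417 to 1109.9 CPM, median 758 (log2 fold change -6.90, SE 0.59, limma adjusted p = 0.00483). Trpv6, an epithelial calcium channel, measured 0, 0.171 and 0 CPM against 16.4 to 128 CPM, median 62.2 (log2 fold change -5.53, adjusted p = 0.00936). Krt79, a type II keratin, was below 1 CPM in each silent line and at 16.7 to 489.7 CPM, median 66.2 in the expressing lines (log2 fold change -6.09, adjusted p = 0.0144). ΔHD1/- line 1 was as low as the other silent lines in these 4 genes.

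In 3 others of the 12 it was not. Epcam, an epithelial adhesion molecule, measured 0.0746, 263 and 0 CPM against 389.7 to 910.3 CPM, median 722 (log2 fold change -6.58, adjusted p = 0.049). Lsr, a receptor that organizes tricellular junctions, measured 0, 103 and 0 CPM against 163 to 267 CPM, median 220.2 (log2 fold change -5.52, adjusted p = 0.047). Lad1, a component of the basement membrane zone, measured 0.261, 191 and 0.208 CPM against 406 to 651 CPM, median 474. In Epcam, Lsr and Lad1 ΔHD1/- line 1 lay below all expressing lines, but far above the other silent lines, which were at or near 0. Of the remaining 5 of the 12, Dsg3 (a desmosomal cadherin), Camsap3 (a protein of microtubule minus ends), Ildr1 (a tricellular junction receptor), Peg3 (an imprinted zinc finger gene) and BC006965 had log2 fold changes of -6.10, -5.55, -5.41, -5.61 and -5.71, with adjusted p of 0.0196, 0.0194, 0.0175, 0.0234 and 0.00601.

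**Figure D3:**
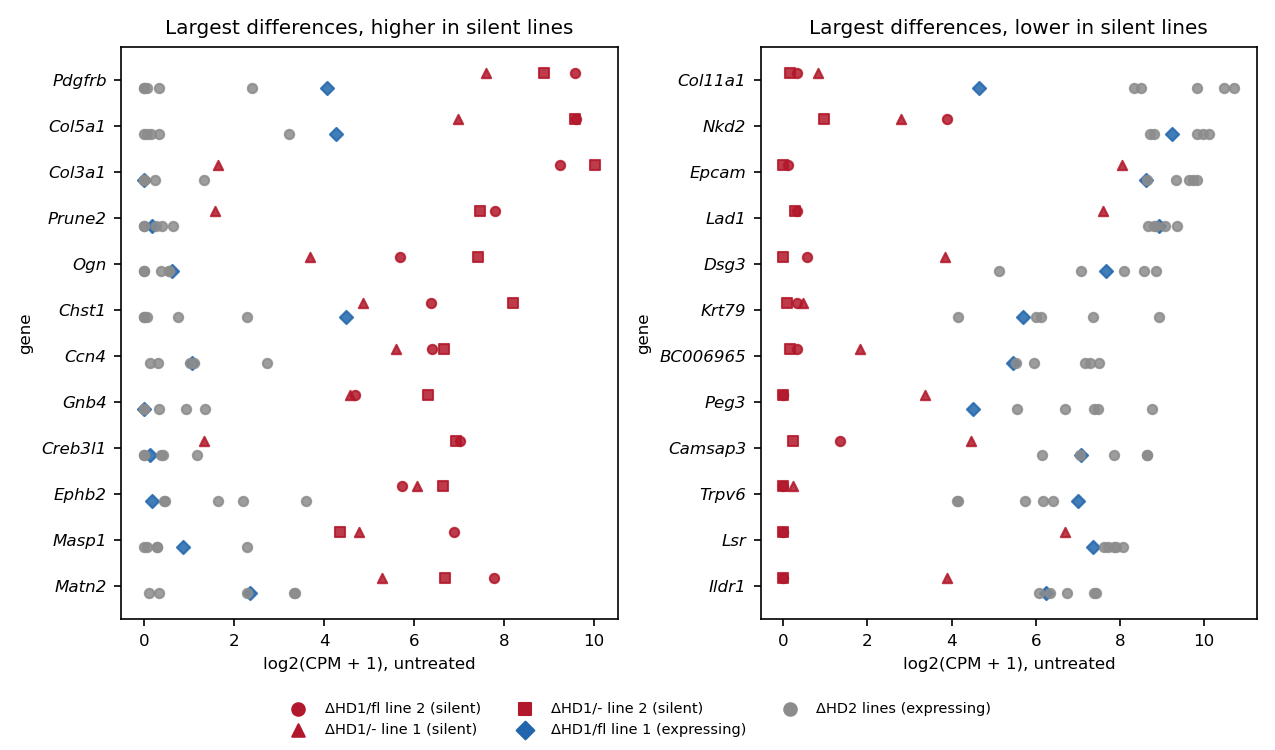
Levels as log2(CPM + 1) of the 12 called genes with the largest rise (left) and the 12 with the largest fall (right) among genes whose groups did not overlap, with 1 point per untreated line. Red marks the 3 silent lines, and the triangle, ΔHD1/- line 1, lies with the other silent lines for Pdgfrb, Ccn4, Nkd2 and Trpv6 but next to the expressing lines for Col3a1, Prune2, Epcam and Lsr.

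The place of ΔHD1/- line 1 was measured for all 480 called genes as its distance from the mean of the expressing lines, relative to the distance of the other 2 silent lines. It lay on the same side in 480 of 480, past the midpoint in 295 (61.5%) and beyond the other 2 lines in 50, with a median position of 57.9% of their distance. The line took part in choosing the called genes, so these numbers are a description. Epcam, at differences of -9.25 and -1.25 on the log2 scale for the mean of the 2 lines and for ΔHD1/- line 1, and Nkd2, at -7.02 and -6.66, are examples of a position near the expressing lines and of one near the other silent lines.

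**Figure D4:**
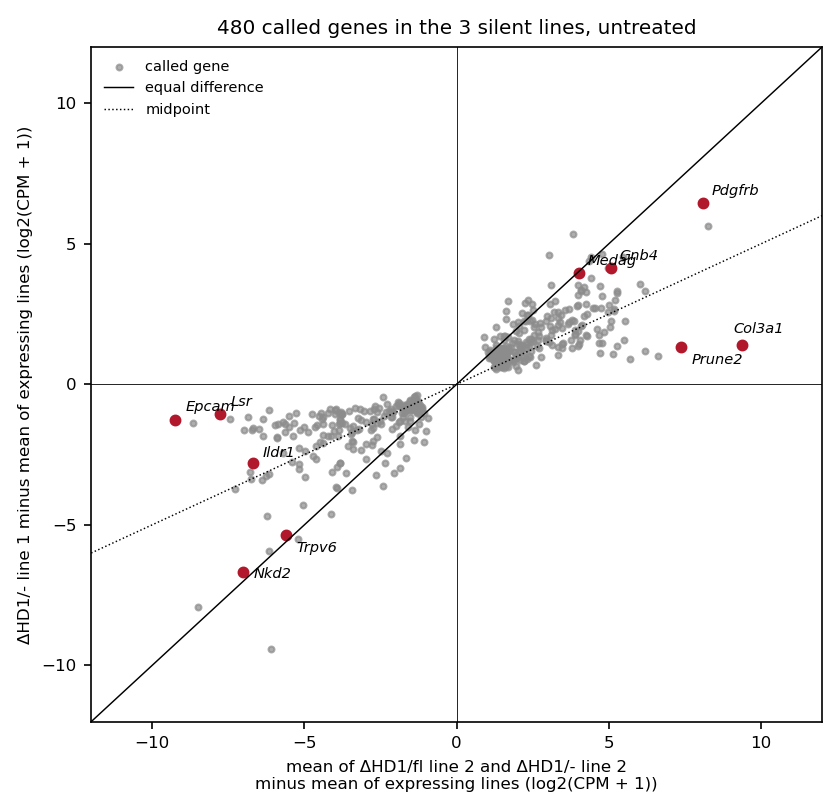
Each of the 480 called genes by its difference from the mean of the 6 expressing lines, in log2(CPM + 1), as the mean of ΔHD1/fl line 2 and ΔHD1/- line 2 (horizontal axis) and in ΔHD1/- line 1 (vertical axis). Points near the solid line, such as Medag, Gnb4, Trpv6 and Nkd2, differ alike in all 3 silent lines. Those nearer the horizontal axis differ less in ΔHD1/- line 1, by 1.39 for Col3a1, 1.32 for Prune2, -1.25 for Epcam and -1.06 for Lsr.

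Which genes separated silent from expressing lines without resting on any 1 line was then asked, and 8 of the 480 were called when each of the 9 lines was left out in turn. Those described here are named after their values were seen, apart from Nkd2 and Gnb4. Nkd2 fell and the other 7 rose. Medag, a gene named for adipocyte formation, measured 19.7, 20.3 and 23.9 CPM against 0 to 1.15 CPM (log2 fold change 4.01, SE 0.30, limma adjusted p = 0.00351). Lhx6, a LIM homeobox transcription factor, measured 29.8, 37.8 and 28.1 CPM against 3.11 to 6.90 CPM, and Sord, sorbitol dehydrogenase of the polyol pathway, 119, 64.9 and 102 CPM against 6.68 to 14.4 CPM.

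Tjap1, a tight junction-associated protein, gave the smallest difference with the smallest spread, at 138, 127 and 149 CPM against 53.6 to 66.4 CPM (log2 fold change 1.26, SE 0.12, limma adjusted p = 0.00574). Pon3, a lactonase of the paraoxonase family, measured 20.3, 18.5 and 42.2 CPM against 0.0419 to 2.63 CPM. Over the 9 fits each without 1 line, the adjusted p of these 8 genes was at most 0.0443. None of the 8 was called without both silent lines that lacked Cdh1, a fit with 0 calls in all and 1 silent line, in which the log2 fold changes were still -6.66 for Nkd2, 3.94 for Medag, 4.14 for Gnb4 and 3.78 for Pon3.

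ΔHD1/fl line 1 is the only expressing line with the ΔHD1 mutation, and a model with the mutant domain as a further term therefore compares the 3 silent lines with it. With 1 line on that side, the p-values take its spread from the other lines, and a difference from this line cannot be told apart from one with Cdkn2a status. This contrast called 31 genes (0.234%), 15 higher (0.113%) and 16 lower (0.121%), and 1726 (13.0%) had an unadjusted p under 0.05. The count was 6 without ΔHD1/fl line 2, 9 without ΔHD1/- line 2, 412 without ΔHD1/- line 1, and 1 without both lines that lacked Cdh1, a setting added after seeing the data. It shares its silent libraries with the comparison above. Against this line the log2 fold change was 4.18 for Medag, 2.99 for Lhx6, -6.93 for Trpv6, 4.62 for Pdgfrb, -6.70 for Nkd2 and -5.89 for Epcam, given as values only.

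In several genes called in this contrast ΔHD1/fl line 1 stood apart from all other lines. Axl, a receptor tyrosine kinase, measured 12.7 CPM there, 943, 1464 and 1265 CPM in the silent lines and 248 to 1281 CPM in the ΔHD2 lines. Oas2, an interferon-induced antiviral enzyme, measured 22.7 CPM in that line and at most 0.299 CPM in any other line. Macroh2a2, a histone variant, measured 0.869 CPM there and 22.5 to 44.5 CPM elsewhere. These genes were named after their values were seen.

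The inhibitors of cyclin-dependent kinases other than Cdkn2a and Cdkn2b were examined next. Of 5 tested, 1 was called, beside 3.62% of all tested genes. Cdkn2c, which encodes p18Ink4c of the same protein family, measured 116, 123 and 169 CPM in the silent lines and 34.7 to 71.3 CPM, median 53.3 in the expressing lines, with no overlap (log2 fold change 1.40, SE 0.23, limma adjusted p = 0.0197). Its call was lost without ΔHD1/fl line 2 (adjusted p = 0.0836) and without ΔHD1/- line 2 (adjusted p = 0.0844), and within ΔHD1 its log2 fold change was 0.90 (adjusted p = 0.303). Cdkn2d, the last Ink4 gene, measured 40.9, 48.0 and 30.5 CPM against 22.3 to 31.9 CPM, median 23.2 and was not called (log2 fold change 0.64, adjusted p = 0.0877). Cdkn3, a phosphatase that acts on cyclin-dependent kinases, measured 18.9, 16.8 and 16.7 CPM against 6.62 to 13.6 CPM, median 9.12, without overlap, and was not called (log2 fold change 0.84, adjusted p = 0.0929). The Cip/Kip inhibitors gave -0.70 for Cdkn1a (p21, adjusted p = 0.331) and -0.51 for Cdkn1b (p27, adjusted p = 0.47). Cdkn1c was at 0 reads in all 3 silent lines and at most 0.370 CPM in the others.

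None of the 21 genes of the cyclin D, Cdk4/6, Rb and E2F list was called by limma, beside 3.62% of all tested genes, and 1 had an unadjusted p under 0.05, beside 21.9%. With Wnt3a 1 was called, lower (2.04% of all genes were). With TGFβ limma called 0, beside 1.88% of all genes, and 4 had an unadjusted p under 0.05, beside 16.7%. In untreated lines their median log2 fold change was 0.03, beside -0.02 over all tested genes. Rb1 measured 22.8, 17.8 and 17.2 CPM against 12.6 to 24.9 CPM, median 18.3 (log2 fold change 0.12, adjusted p = 0.786), and Cdk4 and Cdk6, the kinases that p16Ink4a and p15Ink4b bind, had log2 fold changes of -0.05 (adjusted p = 0.878) and 0.12 (adjusted p = 0.668) by limma. The largest difference in the list was that of Ccnd2 (cyclin D2), with 1.83, 0.0855 and 0.0297 CPM against 0.251 to 163 CPM, median 8.24 (log2 fold change -2.73, adjusted p = 0.39), where the expressing lines spread widely. At a share of 3.62%, no call among so few genes is no result about the list.

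No gene of S phase and mitosis was called in untreated lines. Of 35 genes, 34 had a positive log2 fold change, with a median of 0.56, 0 were called by limma and 6 had an unadjusted p under 0.05, a smaller share than the 21.9% of all tested genes. Top2a, the topoisomerase of dividing cells, measured 1681, 332 and 893 CPM against 141 to 597 CPM, median 490.4 (log2 fold change 1.12, adjusted p = 0.311), and Ccna2 (cyclin A2) 321, 252 and 325 CPM against 75.6 to 203 CPM, median 181 (log2 fold change 1.05, adjusted p = 0.134). The mean log2(CPM + 1) over the list was 7.47, 7.10 and 7.20 in the silent lines and 7.18, 7.08, 6.89, 7.10, 5.71 and 5.77 in ΔHD1/fl line 1, ΔHD2/fl lines 1 and 2 and ΔHD2/- lines 1, 2 and 3. The low values were those of ΔHD2/- lines 2 and 3, and the other 4 expressing lines lay among or just under the silent lines. Within ΔHD1 the median was 0.06. With Wnt3a 2 of the 35 were called, both higher (2.22% of all genes were), and 24 had an unadjusted p under 0.05 (22.3% of all genes), with a list median of 0.78. With TGFβ 0 were called and 9 had an unadjusted p under 0.05 (16.7% of all genes), with 35 of 35 above 0 and a median of 0.97.

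The p53 branch was read from 9 genes of p53 and its regulators and 35 p53 target genes, none of which was called by limma (0 and 8 at an unadjusted p under 0.05, 7 of the 8 lower, beside 21.9% of all tested genes). Trp53 itself measured 229.7, 203 and 186 CPM against 175 to 278 CPM, median 239 (log2 fold change -0.16, adjusted p = 0.596). Mdm2, the p53 ligase that p19Arf inhibits and p53 induces, measured 109, 149 and 116 CPM against 127 to 376 CPM, median 193 (log2 fold change -0.69, adjusted p = 0.265). Cdkn1a, the p53 target p21, measured 82.6, 163 and 169 CPM against 117 to 324 CPM, median 252. The target list had a median log2 fold change of -0.36, with 24 of 35 below 0, but a median of 0.15 within ΔHD1, so its direction depended on the ΔHD2 lines. With Wnt3a and with TGFβ 1 target each was called, lower, beside 2.04% and 1.45% of all genes, and 10 and 13 of the 35 had an unadjusted p under 0.05, all of them lower, beside 22.3% and 16.7% in either direction.

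Among 31 tested regulators of the locus, Polycomb subunits, transcription factors and DNA methyltransferases, 1 was called, beside 3.62% of all tested genes. Jdp2, a bZIP factor, measured 50.2, 20.9 and 115 CPM against 5.95 to 15.0 CPM, median 10.3 (log2 fold change 2.18, SE 0.49, limma adjusted p = 0.0422), and its call was lost in 8 of the 9 fits that each left out 1 line. Of the 31, 13 had an unadjusted p under 0.05, 10 lower and 3 higher, beside 21.9% of all genes, and 22 were below 0, with a median log2 fold change of -0.16. The summed level of the list was 2479.7 to 2680.4 CPM in the silent lines and 2787 to 3109 CPM in the expressing lines, without overlap. A sum is weighted to the genes of high level. The mean log2(CPM + 1) over the list did overlap, at 5.88, 5.78 and 5.67 in the silent lines and 5.86 to 6.06 in the expressing lines. The Polycomb genes Bmi1, Ezh2, Suz12 and Eed had log2 fold changes of -0.01 (adjusted p = 0.979), 0.05 (adjusted p = 0.91), -0.16 (adjusted p = 0.775) and -0.11 (adjusted p = 0.658), and the methyltransferases Dnmt1, Dnmt3a and Dnmt3b of 0.56 (adjusted p = 0.341), -0.27 (adjusted p = 0.504) and -0.95 (adjusted p = 0.0557) by limma. Myc, chosen after its values were seen, was lower without overlap, with 93.3, 125 and 102 CPM against 145 to 258 CPM, median 202, at an adjusted p of 0.0372 by limma but a log2 fold change of -0.92, short of the limit.

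Of 20 genes of epithelial junctions and identity, 5 were called, all lower, beside 1.64% of all genes, and the median log2 fold change of the list was -3.14 with 20 of 20 below 0. They were Epcam, the splicing regulator Esrp2 (0.112, 28.7 and 0.920 CPM against 62.5 to 113 CPM, median 69.2, log2 fold change -4.24), the transcription factors Grhl2 (0.0373, 52.8 and 2.11 CPM, -4.85) and Ovol2 (0, 1.58 and 0 CPM, -3.11), and the trafficking GTPase Rab25 (0.149, 38.7 and 0.148 CPM, -4.98). Of the 9 fits that each left out 1 line, 8 lost the call of Epcam, 7 those of Esrp2 and Grhl2, 2 that of Ovol2 and 6 that of Rab25. Cdh1 was not called (log2 fold change -6.17, adjusted p = 0.0846), and ΔHD1/- line 1 lay among the expressing lines for it. The mean log2(CPM + 1) over the list was 0.87 and 1.38 in ΔHD1/fl line 2 and ΔHD1/- line 2 and 5.98 in ΔHD1/- line 1, inside the range of the expressing lines. The keratin partners Krt8 and Krt18 went apart in ΔHD1/- line 2, at 1089 and 2.23 CPM, where ΔHD1/fl line 2 had 0.336 and 0.373 CPM.

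Of basal and squamous genes, 2 of 16 tested were called, both lower, beside 1.64% of all genes, the laminin chain Lamb3 (-2.57, adjusted p = 0.0234) and Dsg3. Of luminal genes 2 of 14 were called, both lower, beside the same 1.64%, the transcription factor Ehf (-4.39, adjusted p = 0.0268) and the receptor Erbb3 (-5.18, adjusted p = 0.034). The calls of Lamb3, Ehf and Erbb3 were lost in 5, 5 and 7 of those 9 fits. Casein 2 and whey acidic protein, the milk genes Csn2 and Wap, were at 0 in all 9 lines.

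Of 20 mesenchymal genes, 5 were called, all higher, beside 1.97% of all genes, with a list median of 2.83 and 19 of 20 above 0. They were Col3a1, Col5a1 and the transcription factors Zeb1 (205, 52.9 and 134 CPM against 1.31 to 14.1 CPM, median 4.84, log2 fold change 4.24, adjusted p = 0.0177), Zeb2 (29.1, 10.2 and 24.5 CPM, 2.51) and Prrx1 (79.3, 10.9 and 27.5 CPM, 4.07). Without 1 line at a time, the calls of Zeb1, Zeb2 and Prrx1 were lost in 2, 7 and 6 of the 9 fits, and those of Col3a1 and Col5a1 in 8 and 2. Zeb1 and Zeb2, repressors of epithelial genes, were higher in ΔHD1/- line 1 than in any expressing line although that line kept E-cadherin. The mean over the list was 7.74, 5.45 and 7.40 in the silent lines and reached 4.47 in the highest expressing line. Cdh2 (N-cadherin) and Snai2 were not called, with log2 fold changes of 1.03 (adjusted p = 0.694) and 0.01 (adjusted p = 0.998).

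Because the study removed fibroblasts by differential trypsinization, markers of other cell types were read beside these genes. Of 13 fibroblast markers, 8 were tested and 2 called, Pdgfrb and Col3a1, both higher, beside 1.97% of all genes. The median log2 fold change of the 8 was 5.47. An unadjusted p under 0.05 was reached by 6, all higher, beside 21.9% of all tested genes in either direction. The summed level of all 13 was 219.8 to 6467 CPM in the silent lines and 1.05 to 47.8 CPM in the expressing lines. Lum and Tcf21 were at 0 reads in all 9 lines, Dpt and Fap at most 0.0373 CPM, Pdpn at most 0.302 CPM and Dcn at most 1.51 CPM. The sum thus came from collagens and platelet-derived growth factor receptors, with the fibroblast genes Lum, Dcn and Dpt at or near 0. ΔHD1/- line 1 held 6.46 CPM of Col1a1 against 659 and 2603 CPM in the other silent lines. Endothelial markers (2 tested of 9) and immune markers (2 tested of 11) had no call by limma, beside 3.62% of all tested genes. Of these markers 0 and 1 had an unadjusted p under 0.05, beside 21.9%. Ptprc, the pan-leukocyte gene, was at 0 in the silent lines, while Csf1r reached 165 CPM in ΔHD1/- line 2 alone. The part of other cell types in the differences was not tested.

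Of 27 interferon-stimulated genes, 3 were called, all higher, beside 1.97% of all genes. Psmb9 and Psmb8, subunits of the immunoproteasome, measured 16.7, 6.97 and 17.2 CPM against 0.209 to 1.51 CPM, median 0.741 (log2 fold change 2.99, adjusted p = 0.00936) and 11.5, 8.12 and 2.82 CPM against 0 to 1.52 CPM, median 0.519 (log2 fold change 2.27, adjusted p = 0.0311), and the transcription factor Irf1 142, 93.5 and 220.4 CPM against 35.6 to 101 CPM, median 48.0 (log2 fold change 1.48, adjusted p = 0.0493). The levels of Irf1 overlapped, with ΔHD1/fl line 1 above one silent line. The calls of Psmb9, Psmb8 and Irf1 were lost in 1, 6 and 7 of the 9 fits without 1 line. The list mean was 3.01, 3.62 and 3.34 in the silent lines and 4.51 in ΔHD1/fl line 1, the highest of all lines. Its median log2 fold change was 0.44 over all lines and -1.48 within ΔHD1, so the direction turned with the expressing lines used.

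Of 19 tested senescence-associated genes 2 were called, beside 3.62% of all genes. The chemokine Ccl2 rose (9.10, 8.21 and 7.27 CPM against 0.137 to 2.74 CPM, median 0.967, log2 fold change 2.23, adjusted p = 0.0235) and Igfbp5, a binding protein of insulin-like growth factors, fell (76.2, 0.128 and 0.653 CPM against 55.4 to 2304 CPM, median 1283, log2 fold change -7.19, adjusted p = 0.0369), where ΔHD1/fl line 1, at 55.4 CPM, lay below ΔHD1/fl line 2 and well above the other silent lines. The call of Ccl2 was lost in 4 and that of Igfbp5 in 8 of the 9 fits without 1 line. Of 16 tested genes of the Bcl9, Pygopus and Wnt feedback list, 3 were called, all lower, beside 1.64% of all genes, while the median of the list was 0.10 with 9 of 16 above 0, and 3 each way had an unadjusted p under 0.05. The called genes were Nkd2, the transcription factor Tcf7 (15.1, 11.0 and 11.2 CPM against 18.7 to 35.3 CPM, median 27.4, log2 fold change -1.03, adjusted p = 0.0413) and the ubiquitin ligase Rnf43 (0.0746, 0.257 and 0 CPM against 0.690 to 2.18 CPM, median 1.45, log2 fold change -1.11, adjusted p = 0.0417). The latter 2 lay close to the limit of 1, and their calls were lost in 8 and 6 of these fits. The mutated genes themselves, Bcl9 and Bcl9l, measured 66.0, 44.5 and 67.8 CPM against 34.0 to 55.2 CPM, median 48.3, and 323, 318 and 184 CPM against 138 to 255 CPM, median 176, and were not called, with log2 fold changes of 0.37 (adjusted p = 0.365) and 0.56 (adjusted p = 0.221).

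**Figure D5:**
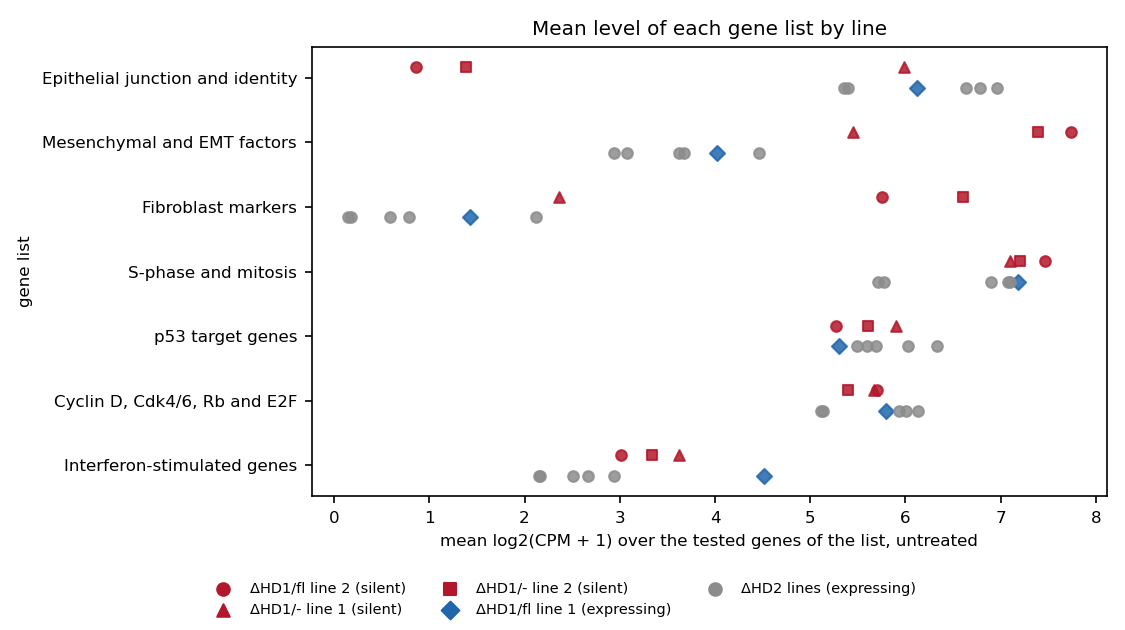
Mean of log2(CPM + 1) over the tested genes of 7 lists in each untreated line, with silent lines in red and ΔHD1/fl line 1 as a blue diamond. Epithelial genes are low in 2 of the 3 silent lines, mesenchymal genes are higher in the 3 silent lines than in the other 6, and the lists of S phase, p53 targets and the Rb pathway overlap between groups.

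The comparison was repeated in the libraries of the same lines under cytokine, which are other libraries of the same cultures. With Wnt3a 566 genes were called (4.27%), 295 higher (2.22%) and 271 lower (2.04%), and with TGFβ 250 (1.88%), 58 higher (0.437%) and 192 lower (1.45%). Of the genes called in untreated lines, 334 were also called with Wnt3a (69.6% of the untreated list and 59.0% of the Wnt3a list) and 118 with TGFβ (24.6% and 47.2%). In all 3 conditions 99 were called in the same direction, 25 higher and 74 lower. In every one of the 27 libraries 50 tested genes (0.377%) were higher and 73 (0.55%) lower in the silent lines without overlap. Leaving out ΔHD1/fl line 2 or ΔHD1/- line 2 lowered the Wnt3a count to 3 and 0 and the TGFβ count to 80 and 78, and leaving out ΔHD1/- line 1 raised them to 968 and 398. Without ΔHD2/fl line 2, ΔHD2/- line 2 and ΔHD2/- line 3, the Wnt3a count was 115, 111 and 120, and the TGFβ count 143, 116 and 119.

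Among the 99 genes, Col11a1 had log2 fold changes of -8.32, -7.29 and -8.61 untreated, with Wnt3a and with TGFβ, and Nkd2 of -6.90, -6.09 and -5.58. Epcam, Grhl2, Esrp2, Ovol2 and Rab25 of the epithelial list were all among them. Gnb4 had 4.75, 4.67 and 4.73, Ccn4 5.15, 5.21 and 2.33 and Zeb2 2.51, 2.65 and 2.20. Medag and Cdkn2c were not, with 4.01, 4.25 and 1.47 for Medag and 1.40, 1.49 and 1.48 for Cdkn2c. Krt79, in the other direction, differed by -6.09, -8.26 and -0.53, as its level in the expressing lines fell to 0.114 to 2.13 CPM with TGFβ.

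Whether the cytokine responses differed with Cdkn2a status was tested as an interaction, with cell line as a term. For TGFβ 58 genes were called (0.437%), with the response lower in the silent lines for 43 (0.324%) and higher for 15 (0.113%), and 1958 (14.8%) had an unadjusted p under 0.05. The responses of the groups did not overlap in 58 of the 58, as in 1067 (8.04%) of all tested genes. Of the 43 genes with the lower response, 27 were also called as higher in untreated silent lines and 21 were below 5 CPM in every untreated expressing line. Mrgprf, a G protein-coupled receptor, responded by -3.85 to -2.86 in the silent lines and -0.47 to -0.06 in the expressing lines (difference -3.14, SE 0.23, limma adjusted p = 0.00187). Ogn responded by -3.68 to -2.50 in the silent lines and -0.28 to 0.73 in the expressing lines (difference -3.14, SE 0.31, limma adjusted p = 0.00794). In the untreated expressing lines Mrgprf and Ogn were at most 0.503 and 0.549 CPM, where no fall can be measured on this scale, so for such genes the difference in response is set by the untreated levels and does not show that the lines respond unequally.

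Not all were of this kind. Akna, an AT-hook protein, was expressed in all lines and responded by -0.99 to -0.25 in the silent lines and 1.63 to 2.72 in the expressing lines (difference -2.69, SE 0.27, limma adjusted p = 0.00794). Il6st, the gp130 chain of interleukin 6 family receptors, responded by -1.77 to -1.59 in the silent lines and -0.69 to 0.07 in the expressing lines (difference -1.37, SE 0.17, limma adjusted p = 0.0173). Among the 15 genes with the higher response in silent lines, Krt79 fell in the expressing lines from a level the silent lines did not have. Its response was 0.03 to 0.31 in the silent lines and -7.87 to -3.99 in the expressing lines (difference 5.55, SE 0.77, limma adjusted p = 0.0282). In all, 8 of the 15 were below 5 CPM in every untreated silent line. Cd14, a co-receptor for lipopolysaccharide, responded by 0.72 to 0.99 in the silent lines and -1.47 to -0.25 in the expressing lines (difference 1.72, SE 0.23, limma adjusted p = 0.0231), that is, in opposite directions. Genes of this paragraph and the one before were named after their values were seen, except Ogn and Krt79.

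The TGFβ interaction depended on single lines. The count was 27 and 12 without ΔHD1/fl lines 1 and 2, 133 and 9 without ΔHD1/- lines 1 and 2, 13 without ΔHD2/fl line 2, and 36, 4 and 17 without ΔHD2/- lines 1, 2 and 3. For Wnt3a limma called 0 genes by status (1094, or 8.25%, at an unadjusted p under 0.05), and 19 without ΔHD2/- line 1.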

How the data were processed

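RNA-sequencing libraries were made from mouse mammary tumour cell lines under no cytokine, Wnt3a or TGFβ. The authors prepared stranded mRNA libraries, used STAR to place reads uniquely on mm10 and QuasR to count those that begin in a RefSeq exon, and deposited CPM values per gene. Every CPM value was a whole multiple of 1 read (100% within 0.01 read), so counts could be recovered from the values the authors deposited. Libraries held 21.9 to 33.7 M reads (1 M is 1000000 reads), and a count of 0 allows 0.089 to 0.137 CPM. Of 24454 identifiers, 24374 matched a RefSeq symbol and 80 did not.

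Lines were grouped by Cdkn2a and Cdkn2b, which were left out of the tests. The filter kept genes reaching 1 CPM in 2 or more of the 27 libraries. The log2(CPM + 1) values were fitted by limma (version 3.58.1, trend and robust settings, R 4.3.3), tested on simulated data. The untreated, Wnt3a and TGFβ libraries were fitted apart, and interactions used both treatments of each line with cell line as a term, since the labels number the lines alike across treatments. P-values measure the spread between these lines only, some of which share a tumour of origin. edgeR 4.0.16 on recovered counts, random line effects (statmod 1.5.0), median-of-ratios scaling, a pseudocount of 0.1, testing without the filter, other thresholds, the replicate number as a block, averaging ΔHD2/- lines 2 and 3 and leaving out lines were alternatives.

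The naming rule took Cdkn2a, Cdkn2b, their protein-coding neighbours within 2 Mb and the 12 called genes of largest change each way without overlap. It also took Bcl9, Bcl9l and called genes of 16 lists, with up to 4 of largest change where none was called. Not every uncalled gene so taken is named in the text. List members named as uncalled examples beyond the naming rule, and genes so marked, were chosen after their values were seen. The groups, lists and rule were chosen with earlier results of these data known. Lines with wild-type Bcl9 and Bcl9l were not analysed here. Some results are not reported here.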

Additional observations from a re-analysis of the deposited data

Results flagged for a closer look

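Among 43 genes examined in the 6 untreated expressing lines, 11 had 1 line far from the others, by a gap to the nearest line of over 0.625 of the whole range (Dixon's limit for 6 samples). For normally distributed values this limit flags about 1 in 20 groups by chance. CPM values need not be so distributed, and in all 11 genes the line apart was the highest. The number to be flagged by chance is therefore not known here. In 4 genes the line was ΔHD2/fl line 1, with 1.51 CPM of Col3a1 (others 0 to 0.185 CPM), 5.69 of Ccn4 (0.0901 to 1.15), 1.25 of Creb3l1 (0 to 0.333) and 3.88 of Masp1 (0 to 0.823). In 3 it was ΔHD1/fl line 1, with 15.8 CPM of Pdgfrb (others 0 to 4.31 CPM), 21.6 of Chst1 (0 to 3.88) and 101 of Irf1 (35.6 to 49.2). These genes were all higher in the silent lines.

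ΔHD2/- line 1 had the highest Ephb2 of the expressing lines, 11.0 against 0.137 to 3.62 CPM. ΔHD2/fl line 2 had the highest Krt79 (489.7 CPM, others 16.7 to 164) and Esrp2 (113 CPM, others 62.5 to 74.5), and ΔHD2/- line 2 the highest Zeb2 (8.60 CPM, others 0.592 to 3.49). The TGFβ response differed with Cdkn2a status in 58 genes by the limma interaction term.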

How the results depend on the processing

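The untreated comparison called 480 genes. It called 314 with no filter on low values, 207 with edgeR, 176 with ΔHD2/- lines 2 and 3 averaged, 956 with all 27 libraries and random line effects, 2339 at an unadjusted p of at most 0.05 and a 1.5-fold change, and 0 without the silent lines lacking Cdh1. A pseudocount of 0.1, median-of-ratios scaling and the adjusted p alone gave 450, 490 and 551. Leaving out 1 line gave 10 to 1100 untreated, 0 to 968 with Wnt3a, 78 to 398 with TGFβ, 6 to 412 within ΔHD1, 4 to 133 for the TGFβ interaction and 0 to 19 for the Wnt3a interaction. A pseudocount of 0.1 gave 14 within ΔHD1 and 24 for the TGFβ interaction, and 1 gene was called within ΔHD1 without the lines lacking Cdh1. That contrast cannot be had without ΔHD1/fl line 1.

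Replicate numbers name lines, and whether lines of equal number share a tumour is not given. Between silent and expressing lines, deviations from the group means correlated at -0.14 to 0.18 in the 7 pairs of equal number. In the 11 other pairs they correlated at -0.16 to 0.10. Only pairs across status were used, so these values cannot decide whether lines of equal number share an origin. With the replicate block the counts were 27 untreated, 0 with Wnt3a, 133 with TGFβ and 1 within ΔHD1. Without the cell line term (no replicate block) the TGFβ interaction called 0.

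Over 17 alternatives for each of 62 named called genes, 592 results kept their call, 462 lost it and 0 changed direction. Among named genes not called, 4 results passed the threshold and 15 changed sign without passing it.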

Other observations

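The 99 genes called alike without cytokine, with Wnt3a and with TGFβ held further genes that the comparisons above do not describe, named here after their values were seen. Lower in the silent lines were 5 genes picked from the 74, with log2 fold changes in untreated lines, with Wnt3a and with TGFβ of -3.82, -4.52 and -3.20 for Crb3, -3.40, -3.88 and -3.95 for Patj, -2.34, -2.85 and -2.32 for Llgl2, -3.53, -3.71 and -3.69 for Marveld3 and -3.61, -4.01 and -4.59 for Pkp3. Crb3, Patj and Llgl2 encode polarity proteins, Marveld3 a tight junction protein and Pkp3 a desmosomal plaque protein. Their untreated calls were lost, in that order of values, in 6, 5, 6, 8 and 2 of the 9 fits without 1 line. The differences of these 5 genes were larger in the 2 silent lines that lacked Cdh1 than in ΔHD1/- line 1. Untreated, the mean of the 2 lines and the value of ΔHD1/- line 1 lay -4.88 and -1.70 from the expressing lines for Crb3, -4.39 and -1.41 for Patj, -3.03 and -0.95 for Llgl2, -4.75 and -1.07 for Marveld3 and -4.65 and -1.53 for Pkp3. The transcription factor Tfap2c, which acts in surface epithelia, had -4.78, -4.47 and -3.25, and was -5.03 and -4.28 from the expressing lines in the same terms.

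Higher in the silent lines in all 3 conditions were 25 genes, of which 5 were picked. Gdnf, a neurotrophic factor, had 3.83, 4.43 and 3.76, and Npr2, a receptor for natriuretic peptide, 3.90, 3.59 and 3.04. Dnm1, the neuronal dynamin, had 4.43, 3.87 and 2.82, and Gabbr1, a subunit of the GABA B receptor, 3.34, 3.53 and 2.53. Ksr1, a scaffold of the Ras and MAP kinase pathway, had 3.18, 3.00 and 2.64. Without 1 line at a time, these untreated calls were lost in 5, 5, 2, 4 and 6 of the 9 fits. In the same order and the terms above, the distances from the expressing lines were 4.07 and 3.34, 4.49 and 2.70, 5.53 and 2.25, 3.87 and 2.27, and 3.90 and 1.74.

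The median log2 fold change by chromosome lay between -0.26 on chromosome 10 (640 tested genes) and 0.18 on chromosome 15 (559 genes), and it was -0.08 on chromosome 4 (833 genes), which carries Cdkn2a.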
